A study of Mus musculus with 22 samples.

Results

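The genes described here are 37 interferon-stimulated genes (ISGs), a list of classical targets of type I interferon. They were measured in sorted mouse microglia, the resident macrophages of the brain. The list was chosen by name, with earlier results of these data known. A gene was taken from its array probe set that maps to its symbol alone, and every value is the log2 of the deposited intensity. Of the 37 genes, 34 had such a probe set, out of 19937 genes measured in this way. Isg15 and Ifi204 lay only on probe sets shared with other genes, and Ifi44 was not analysed here. Of the 34 measured genes, 24 lay above the array median on all 22 arrays, 8 on some of them, and Mx1 and Cmpk2 on none. Differences were tested for the 32 genes above the array median on at least 2 arrays, among 11830 genes tested in all. A few genes met that filter through some groups only: Ifit1 lay above the median on no array of WT control, WT Covi-Ox or KO control, Ifit2 on no control array of either genotype, Oas3 only in WT cuprizone, WT both and KO set B, Mx2 on no array of WT Covi-Ox, KO control or KO set B, and Slfn5 and Dhx58 on no KO control array.

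The study compared microglia of Trem2(-/-) mice (KO), which lack a lipid-sensing receptor of myeloid cells, with those of wild-type (WT) mice, on normal chow or with additives in the feed. The additives were cuprizone, a copper chelator that kills oligodendrocytes and causes loss of myelin, at 0.2% of the feed, and Covi-Ox, a tocopherol (vitamin E) mixture with added alpha tocopherol, at 0.1% of the feed. The groups were KO set A, KO set B, KO cuprizone, WT both (cuprizone with Covi-Ox), WT cuprizone and WT Covi-Ox with 3 arrays each, all labelled as 4 weeks of feeding, and KO control and WT control with 2 arrays each. The 6 KO arrays of sets A and B carry contradictory labels: set A is titled as receiving both additives but described as receiving only Covi-Ox, and set B is titled as Covi-Ox only but described as both. They stand under the set names, and neither reading was chosen. The labels give no strain, sex or age, no origin of the KO allele beyond its name, and no tie of replicates to separate animals. The p-values therefore reflect how far these samples spread, which may be technical in part. The cells were sorted as positive for CD11b, CD45 and F4/80, a gate that other macrophages can also pass.

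Type I interferons bind the receptor pair Ifnar1 and Ifnar2, whose kinases Jak1 and Tyk2 activate STAT proteins. STAT dimers with Irf9 form the complex ISGF3, which binds the interferon-stimulated response element (ISRE), while STAT homodimers formed after interferon gamma bind the GAS element. The induced genes encode antiviral effectors, nucleic acid sensors and regulators such as Irf7, which amplifies interferon production, and Usp18, which dampens receptor signalling. In microglia an ISG-high state is known from viral infection, ageing and loss of myelin.

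RefSeq promoter windows on assembly GRCm38.p6, reaching from 250 bases before to 50 bases after the annotated start, were held for 27 of the 37 genes. The ISRE core (GAAANNGAAA, either strand) occurred at 1 or more annotated starts of 14 of these 27 genes (51.9%), against 3.99% of all 27025 genes with a window. The GAS core (TTCNNNGAA, which reads alike on both strands) occurred in 7 genes (25.9%), against 9.55% of all genes. Bst2, Eif2ak2, Ifitm3 and Oas1a held both, and 10 genes held neither, among them Irf7, Lgals3bp, Oasl2, Slfn2 and Xaf1. A match describes letters only, and no match says only that these letters are not in this window. Shown are the windows of the 4 genes with the largest difference between WT cuprizone and WT control among those with a match. Ifi27l2a, Rtp4 and Zbp1, which had no window, and Irf7, Lgals3bp, Oasl2 and Slfn2, which held neither core, also differed by more than Ifitm3. The windows shown are written in the direction of transcription, and capitals mark the matched cores. Ifit2 lies at chr19:34550444-34550743, plus strand, with a GAS core from -241 to -233 counted from the start. The window of a second annotated Ifit2 start, at chr19:34550838-34551137, held neither core. Slfn5 lies at chr11:82951852-82952151, plus strand, with an ISRE core from -155 to -146. Ifit3 lies at chr19:34583279-34583578, plus strand, and holds an ISRE core from -156 to -147 and another from -122 to -113. Ifitm3 lies at chr7:141010695-141010994, minus strand, and carries ISRE cores from 3 to 12 and from 20 to 29 after the start, the second overlapping a GAS core from 14 to 22.
Ifit2: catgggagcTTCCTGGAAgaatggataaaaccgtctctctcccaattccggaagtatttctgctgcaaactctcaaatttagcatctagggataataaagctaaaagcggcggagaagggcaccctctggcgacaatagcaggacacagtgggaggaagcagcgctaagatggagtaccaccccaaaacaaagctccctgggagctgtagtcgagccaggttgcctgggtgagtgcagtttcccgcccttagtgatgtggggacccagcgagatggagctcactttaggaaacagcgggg
Slfn5: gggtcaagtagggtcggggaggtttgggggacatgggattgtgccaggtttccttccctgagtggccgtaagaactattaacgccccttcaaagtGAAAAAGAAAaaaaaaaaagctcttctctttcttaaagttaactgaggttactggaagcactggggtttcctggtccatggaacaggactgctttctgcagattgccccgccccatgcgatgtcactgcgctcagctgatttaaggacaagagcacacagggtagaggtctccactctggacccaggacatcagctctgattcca
Ifit3: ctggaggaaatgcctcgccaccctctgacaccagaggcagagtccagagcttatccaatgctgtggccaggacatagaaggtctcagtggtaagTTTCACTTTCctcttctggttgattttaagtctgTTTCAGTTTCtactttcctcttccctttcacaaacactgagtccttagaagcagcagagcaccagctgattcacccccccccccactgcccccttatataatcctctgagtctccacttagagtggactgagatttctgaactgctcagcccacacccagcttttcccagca
Ifitm3: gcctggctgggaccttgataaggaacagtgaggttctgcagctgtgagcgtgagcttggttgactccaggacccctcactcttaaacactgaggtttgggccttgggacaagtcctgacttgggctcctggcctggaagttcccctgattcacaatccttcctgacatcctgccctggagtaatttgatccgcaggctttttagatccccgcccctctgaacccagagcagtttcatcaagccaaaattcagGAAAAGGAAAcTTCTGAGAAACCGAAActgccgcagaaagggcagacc

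The windows differ in where the core lies: in Ifit3 and Slfn5 upstream of the start, in Ifitm3 just downstream of it. Of the 16 tested genes with a window that were called higher in WT both than in WT Covi-Ox, 9 held an ISRE core, and of the 8 that were not called, 4 did.

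The labels were checked on Trem2, which lay between 6.40 and 6.83 (log2 intensity) on all KO arrays and between 10.00 and 10.75 on all WT arrays. KO control minus WT control was -3.89 (limma, adjusted p = 2.17e-13). Array medians ran from 5.17 to 5.27, and arrays correlated at 0.963 to 0.992 over probe sets. Several kinds of sample difference touch the results. In WT cuprizone 3, KO cuprizone 2 and KO cuprizone 3 a list of 23 immediate-early genes, which respond to tissue dissociation, averaged 8.65, 8.97 and 9.02, against 9.94 to 10.22 on the other 19 arrays. KO control 2 was the lowest array for 13 of the 34 measured ISGs and KO control 1 for 4, so each comparison with KO control rests on a pair of arrays that hold many of the lowest values. Intensities summed over 7 neutrophil markers ran from 326 to 507 in WT both, 662 to 2356 in WT cuprizone, 148 to 217 in WT Covi-Ox and 3240 to 3261 in WT control. In KO arrays they ran from 279 to 359 in set A, 193 to 763 in set B, 1015 to 3271 in KO cuprizone and 1920 to 2006 in KO control.

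The mean over the 32 tested ISGs placed the WT groups given cuprizone highest. It was 7.61, 7.62 and 7.61 in WT both and 7.33, 7.40 and 7.91 in WT cuprizone, against 6.74, 6.73 and 6.73 in WT Covi-Ox and 6.75 and 6.70 in WT control. In KO microglia it was 7.30, 6.97 and 7.11 in set A, 6.96, 7.22 and 7.29 in set B and 6.99, 7.02 and 6.90 in KO cuprizone, against 6.56 and 6.44 in KO control. The arrays of WT both, WT Covi-Ox and WT control lay close together, and those of WT cuprizone and of both KO sets were spread out. No KO array reached the lowest array of WT cuprizone, and the arrays of set A, set B and KO cuprizone lay above every array of WT Covi-Ox, WT control and KO control. Of the 32 genes, 18 had their highest group mean in WT both and 10 in WT cuprizone, and 20 had their lowest in KO control. Among single arrays WT cuprizone 3 was the highest for 21 of the 34 measured genes. It lay above the mean of the other WT cuprizone arrays for 29 of the 32 tested genes, with a median excess of 0.62 against -0.01 over all genes tested. In bulk samples such as these, fewer cells with a transcript and less transcript per cell cannot be told apart.

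**Figure D1:**
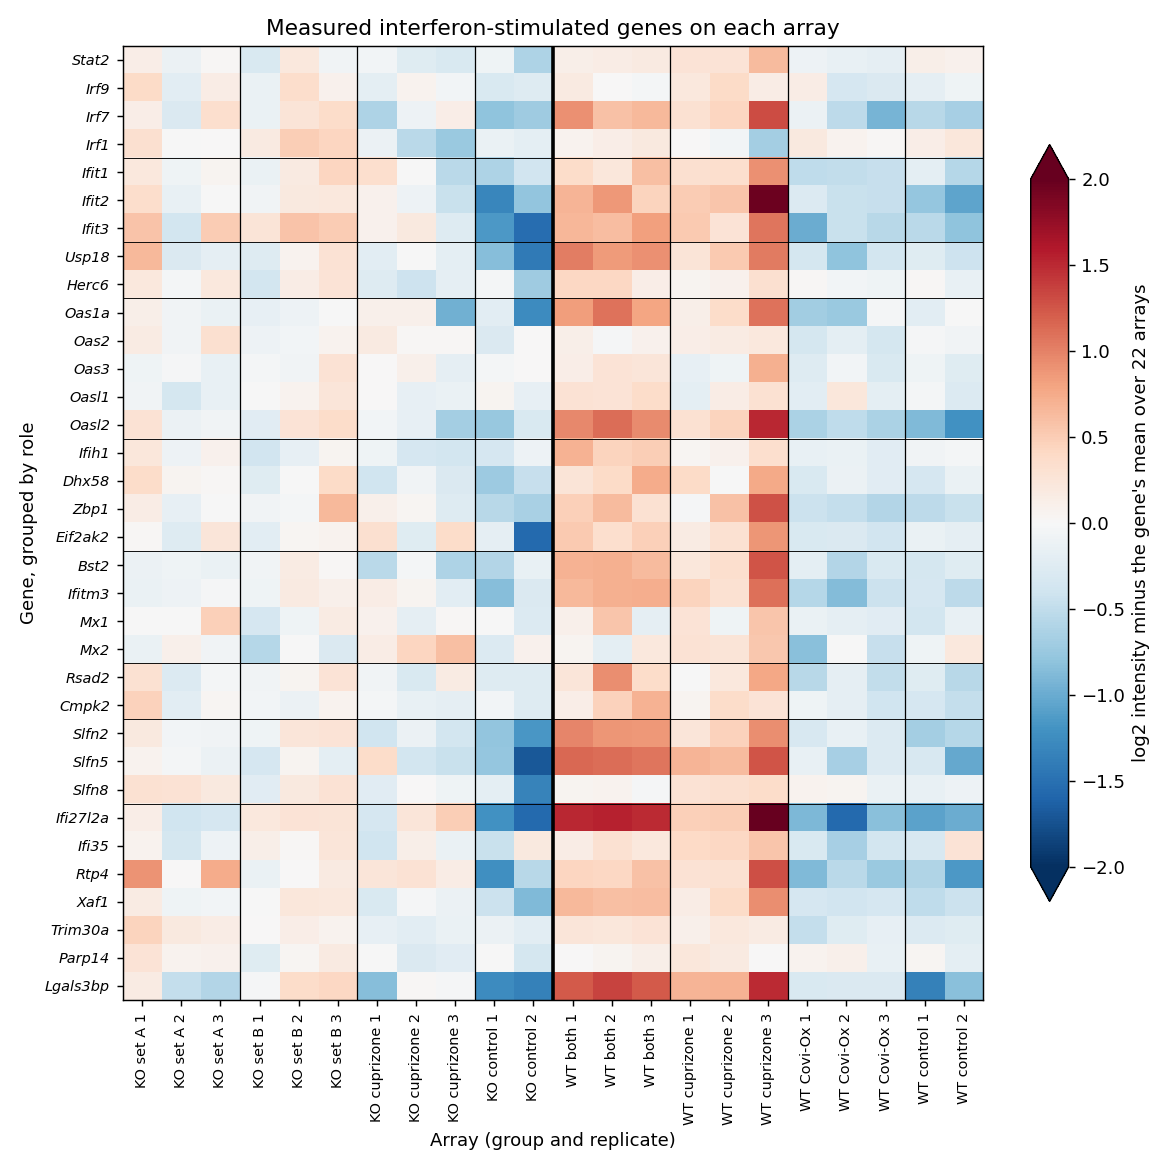
Each cell is the log2 intensity of a gene (down the page, grouped by role) on an array (across), minus that gene's mean over the 22 arrays, in red where higher and blue where lower. Red fills the WT both and WT cuprizone columns, deepest in WT cuprizone 3, and blue the KO control, WT Covi-Ox and WT control columns, while most KO set A, KO set B and KO cuprizone cells are pale.

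**Figure D2:**
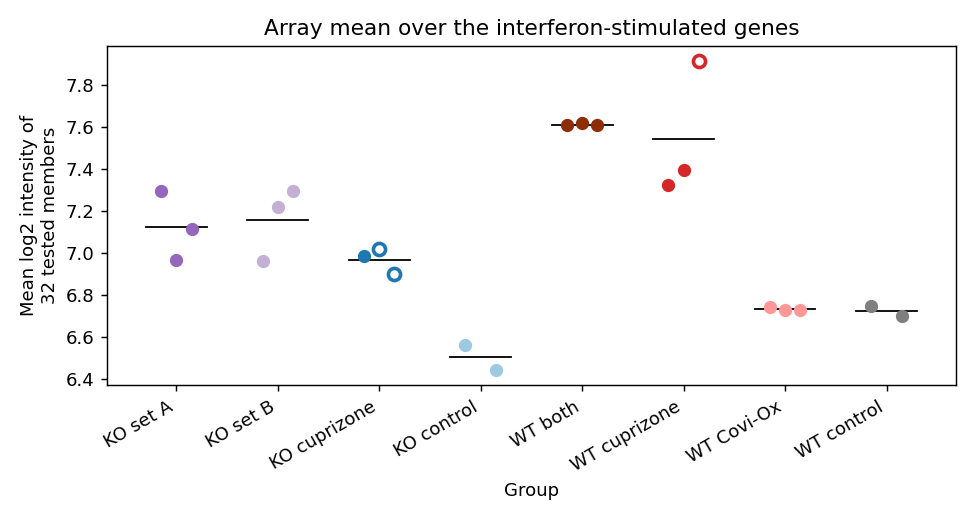
Each point is the mean log2 intensity of the 32 tested ISGs on an array, by group, lines are group means, and open points mark the 3 arrays low in immediate-early genes. WT both sits at 7.61, 7.62 and 7.61, WT cuprizone at 7.33, 7.40 and 7.91 and WT control at 6.75 and 6.70.

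The first comparison asked which ISGs cuprizone changed in WT microglia on normal chow. Cuprizone raised 15 of the 32 tested genes and lowered none (limma, Benjamini-Hochberg adjusted p under 0.05), against 1.8% of all genes called higher. The median difference was 0.68 over the ISGs and -0.02 over all genes tested. All 3 cuprizone arrays lay above both control arrays for 28 of the 32 ISGs, a pattern found in 15.3% of all genes. All but Irf1 had a positive difference. The count was 10 and the median 0.47 when WT cuprizone 3 was left out, and Irf7, Ifit1, Zbp1, Bst2 and Trim30a then lost their call. Dropping WT control 1 gave 8 calls and dropping WT control 2 gave 6, and a fit of these 5 arrays alone called 0 of the 32, with the spread estimated from 3 residual degrees of freedom.

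The second comparison asked the same on the Covi-Ox diet. Cuprizone with Covi-Ox raised 22 of the 32 ISGs over Covi-Ox alone and lowered none, against 4.65% of all genes called higher. All 32 differences were positive, with a median of 0.90 against -0.03 over all genes, and 27 genes had groups that did not overlap, against 13.1% of all genes. The 15 genes called on normal chow were all called here too, and Usp18, Oas1a, Oas2, Ifih1, Dhx58, Rsad2 and Ifi35 were called in addition. Leaving out an array of the comparison gave 16 to 20 calls. Of the 22 genes, 16 kept their call whichever of its arrays was left out, compared with 5 of the 15 on normal chow, namely Ifit2, Oasl2, Slfn2, Ifi27l2a and Lgals3bp. The difference between the 2 cuprizone effects was called for 0 of the 32 genes (0.0254% of all genes in either direction), with 2 at an unadjusted p under 0.05, so the higher count on Covi-Ox is not shown to be a larger response.

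**Figure D3:**
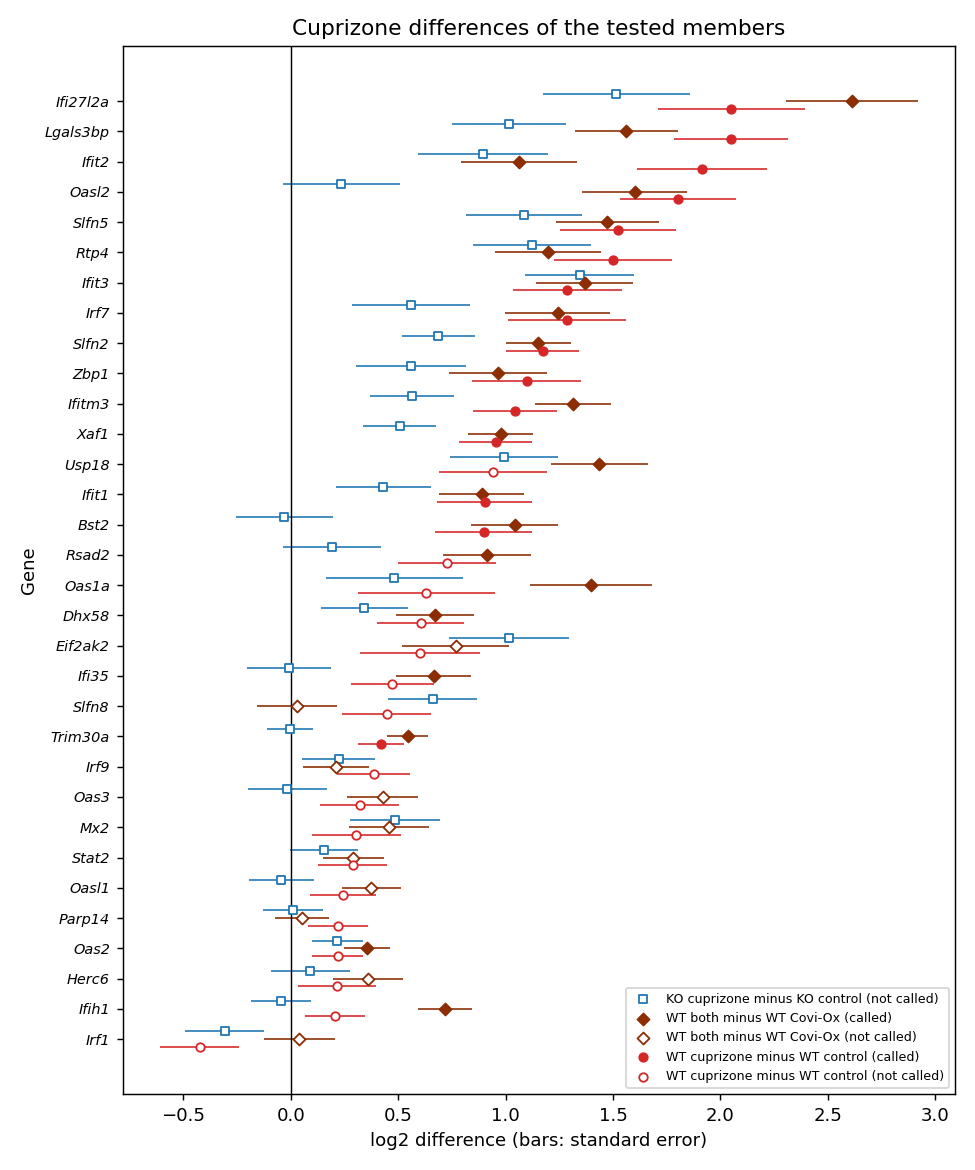
Points are log2 differences of the 32 tested ISGs with standard errors for KO cuprizone minus KO control (blue squares), WT both minus WT Covi-Ox (brown diamonds) and WT cuprizone minus WT control (red circles). Filled symbols were called at an adjusted p under 0.05. Ifi27l2a, Lgals3bp and Ifit2 lead on normal chow, with differences of 2.05, 2.05 and 1.92, Irf1 is the one negative red point, and no blue point is filled.

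Among the transcription factors of the pathway, Irf7 rose on both diets. Its log2 intensity was 6.57, 6.70 and 7.56 in WT cuprizone against 5.71 and 5.61 in WT control, and 7.18, 6.85 and 6.91 in WT both against 6.14, 5.75 and 5.33 in WT Covi-Ox. Neither pair of groups overlapped, and WT cuprizone 3 was highest. The differences were 1.29 ± 0.27 on normal chow (adjusted p = 0.0139) and 1.24 ± 0.25 on Covi-Ox (adjusted p = 0.00297), a 2.44-fold and a 2.37-fold rise. Stat2 and Irf9, the constant partners in ISGF3, differed by 0.29 and 0.39 on normal chow and by 0.29 and 0.21 on Covi-Ox, and none of these was called. Irf1, which binds the ISRE on its own and responds most to interferon gamma, was the one gene with a negative difference on normal chow. It was 8.13, 8.06 and 7.43 in WT cuprizone against 8.25 and 8.34 in WT control, so that the groups did not overlap, with the low end set by WT cuprizone 3. The difference of -0.42 ± 0.18 was not called (adjusted p = 0.253). On Covi-Ox Irf1 was 8.19, 8.25 and 8.32 in WT both against 8.32, 8.19 and 8.14 in WT Covi-Ox, a difference of 0.04. The lowest arrays for Irf1 in the whole series, at 7.43, 7.58 and 7.37, were the 3 arrays low in immediate-early genes. Without those arrays Irf1 differed by -0.20 ± 0.13 in WT cuprizone against WT control. KO cuprizone 1, the only KO cuprizone array then left, differed by 0.04 from KO control in Irf1, where with all arrays the difference was -0.31. With all arrays, a second Irf1 probe set gave group means of 6.87 in WT cuprizone and 7.38 in WT control. The part of the immediate-early difference in the Irf1 values was not tested.

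All 3 measured IFIT genes, which encode proteins that bind viral RNA ends and block translation, rose on both diets. Ifit3 was 8.45, 8.20 and 9.01 in WT cuprizone against 7.40 and 7.13 in WT control, and 8.60, 8.55 and 8.75 in WT both against 6.94, 7.49 and 7.37 in WT Covi-Ox. The arrays given cuprizone all lay above the highest control or Covi-Ox array. The rise was 1.29 ± 0.25 on normal chow (adjusted p = 0.00763) and 1.37 ± 0.23 on Covi-Ox (adjusted p = 0.000583). Ifit2 was 6.41, 6.45 and 7.87 in WT cuprizone against 5.13 and 4.85 in WT control, and 6.58, 6.77 and 6.35 in WT both against 5.62, 5.45 and 5.45 in WT Covi-Ox. WT cuprizone 3 stood well above its own group for Ifit2. The rise was 1.92 ± 0.30 on normal chow (adjusted p = 0.00125), 3.77-fold, and 1.06 ± 0.27 on Covi-Ox (adjusted p = 0.0182). Ifit2 differed by 1.44 ± 0.19 on normal chow without the 3 arrays low in immediate-early genes. Ifit1, the weakest of the family, was 5.72, 5.73 and 6.31 in WT cuprizone against 5.20 and 4.83 in WT control, rising by 0.90 on normal chow and by 0.89 on Covi-Ox. Its control and Covi-Ox arrays lay below the array medians. The WT control arrays of Ifit2 also lay below the array medians, so the size of its rise on normal chow rests in part on such values.

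Usp18, the protease that removes ISG15 from proteins and blocks Ifnar2 signalling, was 7.72, 7.54 and 7.60 in WT both against 6.35, 5.88 and 6.33 in WT Covi-Ox. It rose by 1.44 ± 0.23 there (adjusted p = 0.000346), 2.71-fold. On normal chow Usp18 was 6.95, 7.22 and 7.74 in WT cuprizone against 6.44 and 6.27 in WT control, groups that did not overlap, and the difference of 0.94 ± 0.25 missed the threshold (adjusted p = 0.0517). Herc6, the main ligase that attaches ISG15 in mice, differed by 0.22 on normal chow and 0.36 on Covi-Ox, neither called.

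The oligoadenylate synthetase (OAS) family was uneven. Oasl2, an OAS-like protein with ubiquitin-like domains, had one of the largest responses, at 6.70, 6.85 and 7.91 in WT cuprizone against 5.52 and 5.19 in WT control, and 7.36, 7.53 and 7.35 in WT both against 5.77, 5.90 and 5.77 in WT Covi-Ox. It rose by 1.80 ± 0.27 on normal chow (adjusted p = 0.000946) and 1.60 ± 0.24 on Covi-Ox (adjusted p = 0.000252), 3.49-fold and 3.03-fold. Oas1a, whose product makes the activator of RNase L, was 7.34, 7.60 and 7.30 in WT both against 5.80, 5.77 and 6.47 in WT Covi-Ox, a rise of 1.40 ± 0.28 (adjusted p = 0.00382). On normal chow Oas1a differed by 0.63 ± 0.32 (adjusted p = 0.329), with most of it in WT cuprizone 3 at 7.59 beside 6.62 and 6.88. Oas2 rose by 0.36 on Covi-Ox, a call lost whichever array of the comparison was left out, and differed by 0.22 on normal chow. Oas3 and Oasl1 were called on neither diet, with differences of 0.32 and 0.24 on normal chow and 0.43 and 0.38 on Covi-Ox. Close relatives within the OAS, IFIT and Schlafen families can bind the same probes, and this was not tested.

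Of the nucleic acid sensors, Zbp1, which senses Z-form nucleic acid, rose on both diets. It was 6.29, 6.90 and 7.59 in WT cuprizone against 5.78 and 5.87 in WT control, and 6.79, 6.95 and 6.62 in WT both against 5.89, 5.84 and 5.74 in WT Covi-Ox, with rises of 1.10 ± 0.25 (adjusted p = 0.024) and 0.97 ± 0.23 (adjusted p = 0.0106). Within WT cuprizone Zbp1 ran over more than 1 log2 unit, the widest step being to WT cuprizone 3. Ifih1, the sensor MDA5 of long double-stranded RNA, was 7.76, 7.51 and 7.55 in WT both against 6.91, 6.92 and 6.84 in WT Covi-Ox, a tight and complete separation. It rose by 0.72 ± 0.13 on Covi-Ox (adjusted p = 0.00101) and differed by 0.21 ± 0.14 on normal chow (adjusted p = 0.5). The diet difference for Ifih1 was 0.51 ± 0.19 (adjusted p = 0.663). Dhx58, the regulator LGP2 of the RNA sensors, rose by 0.67 on Covi-Ox and differed by 0.61 on normal chow. Eif2ak2, the kinase PKR that stops translation, differed by 0.60 and 0.77 with neither called.

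The membrane proteins Bst2 and Ifitm3 rose on both diets. Bst2, also called tetherin, which holds budding virus at the cell surface, was 9.37, 9.48 and 10.41 in WT cuprizone against 8.80 and 8.92 in WT control, and 9.85, 9.86 and 9.79 in WT both against 8.96, 8.57 and 8.84 in WT Covi-Ox. Its rise was 0.90 ± 0.23 (adjusted p = 0.0392) and 1.04 ± 0.20 (adjusted p = 0.00253). WT cuprizone 3 was again the outer array, and without it Bst2 was not called on normal chow. Ifitm3, which blocks fusion of virus with endosomes, was among the brightest ISGs, at 10.75, 10.60 and 11.40 in WT cuprizone against 9.96 and 9.78 in WT control, and 10.95, 11.02 and 11.03 in WT both against 9.73, 9.44 and 9.88 in WT Covi-Ox. It rose by 1.05 ± 0.20 (adjusted p = 0.00521) and 1.32 ± 0.18 (adjusted p = 5.99e-05). Mx2, a dynamin-like GTPase, was above the array median on 9 arrays and differed by 0.30 and 0.46, not called. Mx1, its better known relative, stayed between 3.85 and 4.78 on all arrays, below every array median. Rsad2, or viperin, which makes a chain-terminating nucleotide, was 6.04, 6.74 and 6.16 in WT both against 5.25, 5.63 and 5.32 in WT Covi-Ox and rose by 0.91 ± 0.20 on Covi-Ox (adjusted p = 0.00714). On normal chow it differed by 0.73. Its neighbour in function Cmpk2, a nucleotide kinase, stayed between 3.74 and 4.92.

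Slfn2, a Schlafen protein that keeps T cells and monocytes quiescent in mice, was 8.74, 8.96 and 9.43 in WT cuprizone against 7.82 and 7.92 in WT control, and 9.47, 9.39 and 9.36 in WT both against 8.18, 8.35 and 8.23 in WT Covi-Ox. It rose by 1.17 ± 0.17 (adjusted p = 0.000602) and 1.15 ± 0.15 (adjusted p = 5.28e-05). The WT both arrays lay close together and above every WT Covi-Ox array. Slfn5, a nuclear Schlafen protein in human cells, was 6.37, 6.31 and 6.94 in WT cuprizone against 5.37 and 4.67 in WT control, and 6.84, 6.81 and 6.75 in WT both against 5.54, 5.02 and 5.42 in WT Covi-Ox. It rose by 1.52 ± 0.27 (adjusted p = 0.00351) and 1.47 ± 0.24 (adjusted p = 0.000539). Slfn8 was not called on either diet, with 0.45 on normal chow and 0.03 on Covi-Ox.

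On normal chow the largest differences among the tested ISGs were in Ifi27l2a, a small hydrophobic membrane protein, and Lgals3bp, a secreted glycoprotein that binds galectins. Ifi27l2a was 10.11, 10.13 and 11.70 in WT cuprizone against 8.56 and 8.63 in WT control, and 11.14, 11.17 and 11.12 in WT both against 8.73, 8.07 and 8.79 in WT Covi-Ox. WT cuprizone 1 and 2 lay together and WT cuprizone 3 far above them, as for Ifit2. Ifi27l2a rose by 2.05 ± 0.34 on normal chow (adjusted p = 0.00198), 4.14-fold, and by 2.61 ± 0.31 on Covi-Ox (adjusted p = 1.33e-05), 6.12-fold. Lgals3bp was 10.60, 10.62 and 11.42 in WT cuprizone against 8.57 and 9.09 in WT control, and 11.15, 11.27 and 11.15 in WT both against 9.62, 9.64 and 9.63 in WT Covi-Ox. It rose by 2.05 ± 0.27 (adjusted p = 0.000205) and 1.56 ± 0.24 (adjusted p = 0.000252), 4.14-fold and 2.95-fold. Without the 3 arrays low in immediate-early genes the normal chow differences were 1.52 ± 0.20 for Ifi27l2a and 1.78 ± 0.21 for Lgals3bp. Rtp4, a chaperone of receptor transport, rose by 1.50 ± 0.27 on normal chow (adjusted p = 0.00446) and 1.20 ± 0.25 on Covi-Ox (adjusted p = 0.00409), from arrays at 7.90, 7.93 and 8.91 in WT cuprizone against 7.02 and 6.47 in WT control. Xaf1, a pro-apoptotic partner of XIAP, rose by 0.95 and 0.98, and Trim30a, a ubiquitin ligase that restrains innate signalling in mice, by 0.42 and 0.54. Ifi35 rose by 0.67 on Covi-Ox and differed by 0.47 on normal chow. Parp14, a mono-ADP-ribosyltransferase, was called on neither diet, at 0.22 and 0.05.

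**Figure D4:**
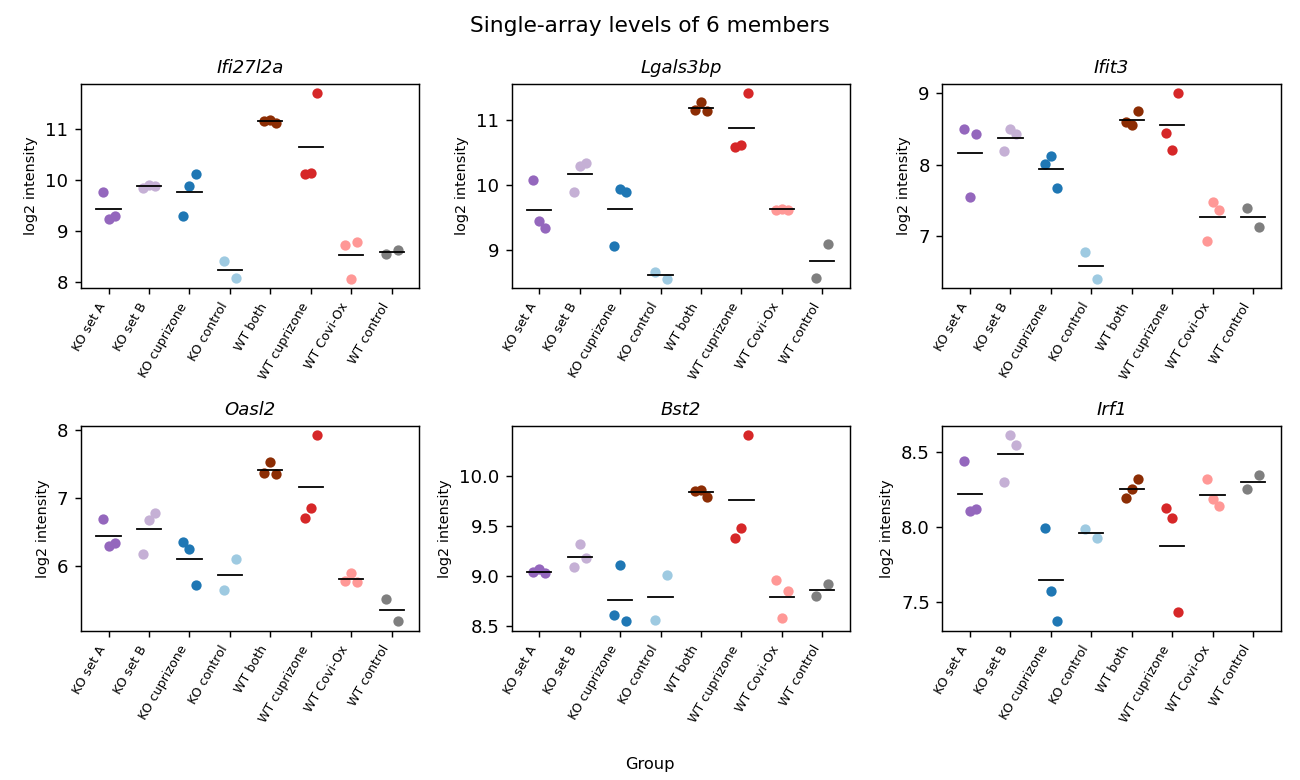
Log2 intensity on every array (points) with group means (lines) for Ifi27l2a, Lgals3bp, Ifit3, Oasl2, Bst2 and Irf1, the KO groups left of the WT groups. For Ifi27l2a the WT both arrays sit at 11.14, 11.17 and 11.12 and the WT Covi-Ox arrays at 8.73, 8.07 and 8.79, while Irf1 is lowest in KO cuprizone 3 and WT cuprizone 3.

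Covi-Ox alone was compared with normal chow in WT microglia. None of the 32 ISGs was called, against 0.0338% of all genes in either direction, 4 had an unadjusted p under 0.05, and the median difference was -0.02. For Ifi27l2a the 95% interval of the difference was -0.78 to 0.65, for Ifit3 -0.53 to 0.53 and for Lgals3bp 0.24 to 1.35. Lgals3bp gave 9.62, 9.64 and 9.63 in WT Covi-Ox against 8.57 and 9.09 in WT control, groups that did not overlap (difference 0.80 ± 0.27, adjusted p = 0.434). Neutrophil markers S100a8 and S100a9 differed by -5.99 and -5.24 in WT Covi-Ox against WT control, both called lower, and their part in the ISG values was not tested. Adding Covi-Ox to cuprizone was also compared with cuprizone alone. None of the 32 ISGs was called, against 0.152% of all genes in either direction, 3 had an unadjusted p under 0.05, and the median difference was 0.08. Without WT cuprizone 3 that median was 0.29 and 1 gene was called. The widest positive differences were in Ifi27l2a, at 0.50 ± 0.31 (95% interval -0.14 to 1.14), and Ifih1, at 0.39 ± 0.13 (95% interval 0.13 to 0.65).

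In Trem2(-/-) microglia the same question was asked of cuprizone on normal chow. None of the 32 ISGs was called, against 0.0423% of all genes in either direction, although 14 had an unadjusted p under 0.05. The median difference was 0.46 against 0.0042 over all genes, and 16 ISGs had KO cuprizone arrays all above the KO control arrays, against 10.6% of all genes. The count depends on single arrays. Leaving out KO control 1 gave 8 calls, leaving out KO cuprizone 1 gave 3, and leaving out WT cuprizone 3 gave 5, an array which lies outside the comparison and enters through the shared spread. Ifit3 came nearest, at 8.01, 8.13 and 7.67 in KO cuprizone against 6.78 and 6.41 in KO control, a difference of 1.35 ± 0.25 (adjusted p = 0.0616), 2.54-fold, with no overlap. Ifi27l2a was 9.29, 9.87 and 10.12 in KO cuprizone against 8.42 and 8.07 in KO control, a difference of 1.52 ± 0.34 (adjusted p = 0.0916), also without overlap. Rtp4, Slfn5, Lgals3bp and Eif2ak2 differed by 1.12, 1.09, 1.02 and 1.02, none called. Other genes with large WT differences had small ones here. Bst2 was 8.61, 9.11 and 8.54 in KO cuprizone against 8.56 and 9.01 in KO control, a difference of -0.03 ± 0.23, and Oasl2 was 6.35, 6.24 and 5.72 in KO cuprizone against 5.64 and 6.10 in KO control, a difference of 0.23 ± 0.27. Trim30a and Ifih1, whose WT differences on normal chow were smaller than those of Bst2 and Oasl2, differed by -0.01 and -0.04.

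KO cuprizone and WT cuprizone were compared directly. The KO arrays were lower for 8 of the 32 ISGs and higher for none, against 2.98% of all genes called lower. Of the 32 differences 31 were negative, with a median of -0.59 against -0.01 over all genes, and 21 genes had KO arrays all below the WT arrays, against 11.6% of all genes. Lgals3bp was 9.07, 9.94 and 9.89 in KO cuprizone against 10.60, 10.62 and 11.42 in WT cuprizone, 2.37-fold lower in KO (difference -1.25 ± 0.24, adjusted p = 0.00499). Bst2 was 8.61, 9.11 and 8.54 in KO cuprizone against 9.37, 9.48 and 10.41 in WT cuprizone (95% interval of the difference -1.42 to -0.58, adjusted p = 0.00765). Both were lower on every KO array than on any WT array. Slfn2 was 8.10, 8.38 and 8.12 in KO cuprizone against 8.74, 8.96 and 9.43 in WT cuprizone (difference -0.84 ± 0.15, adjusted p = 0.00307). These 3 genes kept their call whichever array of the comparison was left out. Ifit2, Oasl2, Slfn5, Xaf1 and Stat2 were the other genes called, at -1.16, -1.05, -0.999, -0.63 and -0.59. For Ifit2 the arrays were 5.99, 5.81 and 5.46 in KO cuprizone against 6.41, 6.45 and 7.87 in WT cuprizone. Without the 3 arrays low in immediate-early genes, only KO cuprizone 1 was left in KO cuprizone, and the difference was -0.44. Ifit3 was 8.01, 8.13 and 7.67 in KO cuprizone against 8.45, 8.20 and 9.01 in WT cuprizone and differed by -0.62 ± 0.23 (adjusted p = 0.141). Mx2 was the one gene with a positive difference, at 0.03. The count was 3 without WT cuprizone 3 or without KO cuprizone 3, and 5 without KO cuprizone 2. Without the 3 arrays low in immediate-early genes, the median difference was -0.31. Adjusting for the immediate-early mean gave a count of 15, and a fit of the 6 arrays compared alone gave 0.

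On normal chow without additives, KO control was compared with WT control. None of the 32 ISGs was called, against 0.0676% of all genes in either direction, 5 had an unadjusted p under 0.05, and 14 had KO arrays below WT arrays, against 21.7% of all genes. The median difference was -0.15 against -0.03 over all genes. Ifit3 was 6.78 and 6.41 in KO control against 7.40 and 7.13 in WT control, a difference of -0.67 ± 0.28 (adjusted p = 0.413). Slfn8 was 7.46 and 6.33 in KO control against 7.51 and 7.56 in WT control, where KO control 2 lay far below KO control 1. Oasl2 had a positive difference, at 5.64 and 6.10 in KO control against 5.52 and 5.19 in WT control. Without KO control 1 the count was 3.

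The cuprizone effect in KO minus that in WT was called for 0 of the 32 ISGs (0.228% of all genes in either direction), with 5 at an unadjusted p under 0.05 and a median of -0.36. The most negative was Oasl2, at -1.57 ± 0.38 (adjusted p = 0.12). Lgals3bp gave -1.03 ± 0.38, Ifit2 -1.02 ± 0.43 and Bst2 -0.93 ± 0.32. Ifit3 gave 0.06 ± 0.36, with a 95% interval of -0.69 to 0.81. The larger number of calls in WT is therefore not shown to be a genotype difference in response. The median was -0.20 without WT cuprizone 3. It was -0.07 without the 3 arrays low in immediate-early genes, which leaves only KO cuprizone 1 in KO cuprizone.

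**Figure D5:**
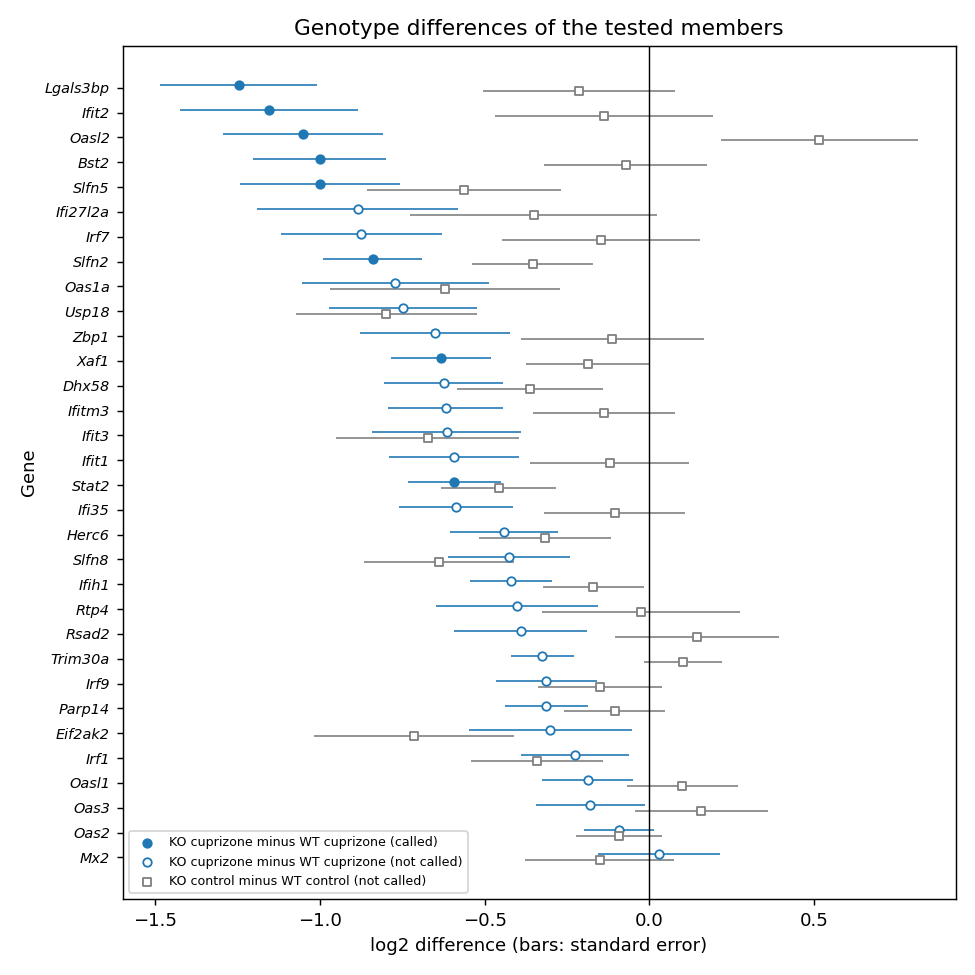
Log2 differences with standard errors of the 32 tested ISGs, for KO cuprizone minus WT cuprizone (blue circles, filled where called at an adjusted p under 0.05) and KO control minus WT control (grey squares, none called). Lgals3bp, at -1.25, and Ifit2, at -1.16, are the most negative blue points.

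KO set A and KO set B were each compared with KO control, which both comparisons share. Set A was higher for 2 of the 32 ISGs, against 0.0338% of all genes called higher, and 23 genes did not overlap, against 13.4% of all genes. Set B was higher for 6, against 0.549% of all genes called higher, and 21 did not overlap, against 15.2% of all genes. The median differences were 0.57 for set A and 0.64 for set B. Ifit3 was called in both. It was 8.50, 7.56 and 8.43 in set A and 8.19, 8.50 and 8.44 in set B, against 6.78 and 6.41 in KO control, differences of 1.57 ± 0.25 (adjusted p = 0.0303) and 1.78 ± 0.25 (adjusted p = 0.0079). Slfn2 was called in both as well, at 1.00 ± 0.17 in set A and 1.12 ± 0.17 in set B. The other calls in set B were Ifi27l2a, Lgals3bp, Usp18 and Xaf1, at 1.63, 1.56, 1.17 and 0.80. In set A the same genes differed by 1.18, 1.01, 1.19 and 0.66, not called. Lgals3bp was 10.08, 9.45 and 9.34 in set A and 9.90, 10.29 and 10.34 in set B, against 8.67 and 8.56 in KO control. KO set B 1 was below the mean of the other set B arrays for all 32 ISGs, with a median difference of -0.28. KO set A 1 was above the mean of the other set A arrays for 28.

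The KO set counts rest on the control arrays. Without KO control 2 both were 0, and without KO control 1 they were 12 in set A and 10 in set B. Without WT cuprizone 3, which belongs to neither comparison, they were 7 and 10. Set A fell to 0 without its array 1 or 3, and set B to 3, 2 and 3 without its array 1, 2 and 3 in turn. Set B against set A gave 0 calls among the ISGs (0.00845% of all genes in either direction), 3 at an unadjusted p under 0.05 and a median of 0.07. For Lgals3bp set B minus set A was 0.55 ± 0.24 and for Rtp4 -0.53 ± 0.25, with arrays of 7.48, 7.62 and 7.80 in KO set B against 8.51, 7.63 and 8.36 in KO set A. For Ifi27l2a the 95% interval was -0.19 to 1.09.

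The rest of the pathway was followed through further lists. Of 8 interferon genes 6 had a probe set of their own and 4 were tested. Ifnb1, the interferon beta gene, was 6.45, 4.82 and 7.11 in WT both against 4.01, 4.10 and 4.07 in WT Covi-Ox, a rise of 2.07 ± 0.53 (adjusted p = 0.0196). It was above the array median on only 4 arrays, 2 of WT both and 2 of KO set B, so it passed the filter through the groups where it is high. In set B it was 4.14, 6.83 and 6.35, in KO control 4.16 and 3.59, in WT cuprizone 3.74, 3.66 and 3.48 and in WT control 3.98 and 4.39. Its level was uneven within WT both, where the ISG means of the 3 arrays ran from 7.61 to 7.62. The part of Ifnb1 in the ISG values was not tested. Ifng lay between 4.55 and 5.35 and Ifna4 between 2.92 and 3.55 on all arrays. Ifna5 and Ifnl2 were above the array median on all 22 arrays and Ifna2 on 15, and none of these 3 was called in any comparison. Of 10 tested receptor, kinase and STAT genes, 1 was called, Ifngr1, a chain of the interferon gamma receptor, with 10.03, 10.09 and 10.00 in WT both against 10.38, 10.42 and 10.40 in WT Covi-Ox and a difference of -0.36, where 3.17% of all genes were called lower. It was called in none of the other 11 comparisons. Of 18 upstream sensing genes, 1 was called in WT both against WT Covi-Ox and in set B against KO control, Trex1, the exonuclease that clears cytosolic DNA, at 0.49 ± 0.15 and 0.76 ± 0.17. In these comparisons 4.65% and 0.549% of all genes were called higher.

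Of 29 further interferon-responsive genes tested, 4 rose and none fell in WT cuprizone against WT control, namely Sp100, Ube2l6, Trim25 and Cd274, and 9 rose and 1 fell in WT both against WT Covi-Ox. Over all genes 1.8% and 4.65% were called higher. The median differences of the list were 0.25 and 0.31, against -0.02 and -0.03 over all genes. Sp100, a nuclear body protein, was 7.17, 7.23 and 7.94 in WT cuprizone against 6.28 and 6.28 in WT control, a rise of 1.17 ± 0.21 (adjusted p = 0.00328). Ube2l6, the E2 enzyme of ISG15 conjugation, was 6.10, 6.40 and 7.15 in WT cuprizone against 5.43 and 5.42 in WT control, a rise of 1.13 ± 0.29 (adjusted p = 0.0419). On Covi-Ox the same 4 genes rose, joined by Cxcl10, Tap1, Psmb8, Ogfr and Nmi, while Trafd1 differed by -0.37 and was called lower. Cxcl10, a chemokine, was 10.31, 10.42 and 10.46 in WT both against 8.01, 8.48 and 8.65 in WT Covi-Ox, a rise of 2.02 ± 0.44 (adjusted p = 0.0064). In WT cuprizone Cxcl10 was 9.43, 9.56 and 8.04, so that WT cuprizone 3, highest for most ISGs, was lowest for Cxcl10. Cd274, the checkpoint ligand PD-L1, was the one gene of the list called in WT both against WT cuprizone, at 7.71, 7.90 and 7.84 in WT both against 6.97, 7.14 and 7.23 in WT cuprizone (difference 0.71 ± 0.14, adjusted p = 0.0415). In KO cuprizone against WT cuprizone 4 were lower, where 2.98% of all genes were, Sp100, Trim25, Cxcl10 and Cd274, at -0.75, -0.49, -1.62 and -0.65. Cxcl10 in KO cuprizone was 8.81, 6.96 and 6.39, low on both arrays low in immediate-early genes. In set B against KO control Sp100, Trim25 and Cd274 were higher, at 0.93, 0.52 and 0.80.

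Other cell markers moved beside the ISGs. All 6 tested microglial markers were called lower in WT both than in WT Covi-Ox, from Csf1r at -0.31 to Siglech at -0.68, against 3.17% of all genes. In KO cuprizone against WT cuprizone 3 of 6 were called higher, against 0.82% of all genes, and the summed intensities ran from 18859 to 20766 in KO cuprizone. The summed microglial intensities ran from 14183 to 14700 in WT both and 19532 to 20017 in WT Covi-Ox, and from 15091 to 17752 in WT cuprizone and 19245 to 19795 in WT control. Among 6 markers of border macrophages, 3 were called lower in WT both than in WT Covi-Ox and 1 in WT cuprizone than in WT control, against 3.17% and 0.702% of all genes. Of 4 measured markers of plasmacytoid dendritic cells, cells known for making interferon, 2 were above the array median on at least 2 arrays. Cox6a2, a muscle-type respiratory subunit, rose by 2.25 ± 0.43 in WT cuprizone over WT control and by 2.40 ± 0.38 in WT both over WT Covi-Ox. Tcf4, the other tested gene of this list, differed by -0.18 and -0.13, neither called, and Ccr9 and Ly6d were above the array median on no array. The summed intensity of this list ran from 778 to 2097 in WT cuprizone and 585 to 645 in WT control. Of 2 tested endothelial markers, Flt1, a receptor of vascular endothelial growth factor, rose by 1.46 ± 0.29 in WT cuprizone over WT control (adjusted p = 0.00882) and by 2.37 ± 0.26 in WT both over WT Covi-Ox (adjusted p = 6.96e-06). It was lower in KO cuprizone than in WT cuprizone, at -1.54 ± 0.26 (adjusted p = 0.00186). Flt1 was above the array median on only 6 arrays, and it passed the filter through those arrays alone. Its mean over all arrays was 5.12, where the array medians ran from 5.17 to 5.27. The sizes of the Flt1 differences therefore rest in part on values below the array medians. Pecam1, the other tested endothelial marker, was called once, at -0.68 in WT both against WT Covi-Ox. Of 5 tested neutrophil markers, S100a8 rose by 2.66 ± 0.63 in WT both over WT Covi-Ox, and S100a8 and S100a9 were called lower in KO set B than in KO control, at -3.63 and -3.67, where 0.194% of all genes were called lower. No tested gene of the monocyte, T and NK cell, B cell, oligodendrocyte or astrocyte lists was called in any comparison. Few genes of these lists were tested, in turn 3 of 6, 3 of 8, 1 of 4, 3 of 5 and 3 of 5 listed. The absence of calls therefore says little about these cells. The part of these markers in the ISG values was not tested.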

How the data were processed

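Expression was measured on 22 Affymetrix mouse gene arrays in 8 groups of 2 or 3 arrays. The deposited table holds linear intensity per probe set, processed with RMA per the submitters' processing notes. No version or settings of RMA and no genome build of the array could be taken from the labels. Because RMA equalises the arrays, a change in total RNA per cell cannot be seen. The number of arrays limits the precision.

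Taking log2 of the deposited intensity was the first step here. Of 28098 probe sets, 21640 were listed with 1 gene, 1321 with several and 5137 with none named in the platform table, and only the first were used. The probe set with the highest mean stood for a gene, and it had to exceed the array's median (50th percentile) on 2 or more arrays. One limma 3.58.1 model in R 4.3.3 held the 8 group means, with 14 residual degrees of freedom, and gave 12 comparisons, 2 of them differences of differences. Tests were two-sided, and Benjamini-Hochberg adjustment ran over the 11830 genes tested. Calls were made at an adjusted p under 0.05, and the errors given are the model's standard errors. The workflow was tested on simulated data.

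The members, the other pathway lists, the marker lists and the comparisons were chosen with earlier results of these data known. Every measured member is reported by role, and genes of the other pathway lists are named where called. The filter, normalization, probe set choice, spread model, threshold, replicate block and each array were varied, and 2 alternatives on the immediate-early arrays were chosen after seeing the data. Promoter sequences are from RefSeq, GRCm38.p6.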

Additional observations from a re-analysis of the deposited data

How the results depend on the processing

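Alternatives were run for the number of ISGs called in each comparison and for every called gene, and none of the called differences changed sign. A fit of only the arrays compared called 0 for WT cuprizone over WT control, 0 for KO cuprizone against WT cuprizone, 0 for set A and 2 for set B against KO control, with fewer arrays behind the spread. At an adjusted p under 0.01 the counts were 3 for KO cuprizone against WT cuprizone, 0 for set A and 2 for set B. A filter at the 75th percentile gave 14 for KO cuprizone against WT cuprizone and 1 for KO cuprizone against KO control, quantile normalization gave 1 for the second of these, and centring each array on its median gave 16 for the first. Without the 3 arrays low in immediate-early genes the counts were 1 for WT both against WT cuprizone, 9 for set A and 13 for set B. That setting leaves only KO cuprizone 1 in KO cuprizone, so no count is given for that group. Adjusting for the mean of those genes gave 1 for WT both against WT cuprizone and 15 for KO cuprizone against WT cuprizone. It gave 7 for set A, 11 for set B and 2 for the genotype difference. The causes were not tested. Leaving out 1 array at a time gave 6 to 17 for WT cuprizone over WT control, 16 to 24 for WT both over WT Covi-Ox, 0 to 1 for WT both against WT cuprizone, 0 to 0 for WT Covi-Ox against WT control, 0 to 8 for KO cuprizone against KO control, 3 to 11 for KO cuprizone against WT cuprizone, 0 to 3 for KO control against WT control, 0 to 12 for set A, 0 to 10 for set B, 0 to 0 for set B against set A, 0 to 1 for the genotype difference and 0 to 0 for the diet difference. The count for set A was 0 or 1 without any of 8 arrays outside its comparison (WT control 1 and 2, WT cuprizone 2, WT Covi-Ox 1 and 3, WT both 2 and 3, KO cuprizone 3), that for KO cuprizone against KO control was 1 without KO set A 2, and that for the genotype difference was 1 without WT cuprizone 1 or KO control 1. No filter, averaging a gene's probe sets and limma's trend and robust options moved no count by over 1.5 times.

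The replicate numbers do not pair the arrays: same-numbered arrays of different groups had deviations correlated at a median of -0.0004 (-0.227 to 0.254), and 6 of 22 arrays correlated best with their own number. With the replicate block the counts were 11 for WT cuprizone over WT control, 0 for set A and 3 for set B. Each group had 2 or 3 arrays, and Oas3, Mx2 and Ifit1 exceeded the array median on 5, 9 and 14 of the 22 arrays.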
